A study of Homo sapiens with 8 samples.

Results

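The genes described here are the collagens, the laminins and the integrins: 78 of the 18239 genes with a probe set on the arrays, taken by symbol alone. They are 43 collagen chains, 10 laminin chains, 17 integrin alpha and 8 integrin beta chains, matched on the whole symbol, so that binding proteins and antisense genes are left out. A further 3 genes of the same symbols were not analysed here. Expression was measured on 8 Affymetrix arrays, 2 in each of 4 groups, as log2 values made with RMA (a background correction, normalization and summary of the probes of a probe set). The groups were 231BrM without doxycycline, 231BrM with doxycycline, SKBrM3 without doxycycline and SKBrM3 with doxycycline. Both are brain-metastatic breast cancer lines grown in DMEM with serum. 231BrM is known as a derivative of MDA-MB-231, a basal and mesenchymal line, and SKBrM3 as one of SK-BR-3, a luminal line with ERBB2 amplified. Cells of all 4 groups carried a short hairpin against MET, the receptor for hepatocyte growth factor, that doxycycline switches on. Doxycycline was given for 48 h at 100 ng, as the labels put it with no volume. Since hairpin-free cells given the drug are not among the groups, effects of doxycycline and of the hairpin cannot be told apart. The labels do not say whether a line is 1 clone.

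Collagens, laminins and integrins form the 2 sides of cell adhesion to the matrix. Fibrillar collagens such as collagen I and V build tensile fibres, collagen IV and the laminins build the sheet of the basement membrane, and collagen VI and the fibril-associated collagens link these structures together. Integrins are receptors of 1 alpha and 1 beta chain that bind these proteins outside the cell and the cytoskeleton inside it, and ITGB1 encodes the beta chain shared by the collagen, laminin and fibronectin receptors. In the brain, basement membrane lies around the blood vessels, along which metastatic cells are known to grow.

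Of the 78 genes, 49 had 2 or more arrays over a log2 value of 4.41 (the 40th percentile of the whole table) and were tested with limma. They were 23 collagens, 9 laminins, 11 integrin alpha chains and 6 integrin beta chains. The other 29 lay between 3.23 and 4.61 on all arrays and were not tested. Among them were the fibrillar collagen chains COL1A2, COL2A1 and COL3A1, the laminin chain LAMA2, and the integrin chains ITGA1, ITGA4, ITGA7, ITGA8 and ITGAM. ITGB6, a beta chain of epithelial cells that activates latent TGF-beta, lay between 3.54 and 3.81, and ITGB8, which has the same role, between 3.92 and 4.33. A gene could pass through 1 line or 1 group alone, as LAMA1 did through 231BrM and ITGA9 through SKBrM3 without doxycycline. Counts among the 49 are therefore a description.

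MET checked the hairpin: it fell by 3.76 on the log2 scale in 231BrM (SE 0.148, limma adjusted p = 2.83e-05) and by 3.50 in SKBrM3 (SE 0.148, limma adjusted p = 1.3e-05), with 2 arrays per group. Of 10 markers of basal, mesenchymal breast lines, 9 were above the filter in both lines and SPARC in 231BrM alone. VIM was at 12.9 in 231BrM and 12.8 in SKBrM3 without doxycycline, and the summed log2 level of the 10 was 99.8 to 101 against 96.3 to 96.4. Of 14 markers of luminal, ERBB2-amplified lines, 11 were above it, and their summed level was 93.3 to 94.1 in 231BrM against 88.0 to 88.5 in SKBrM3. ERBB2 was 6.81 and 6.71 (difference 0.10, limma adjusted p = 0.418), KRT19 was 2.59 log2 units higher in 231BrM, and FOXA1 differed by -1.37 (231BrM minus SKBrM3). The arrays labelled SKBrM3 thus lack the high ERBB2 of an SK-BR-3 type line, and SKBrM3 below means the arrays so labelled. Replicate 1 of the 231BrM doxycycline group stood apart: its actin control signal was 1.24 log2 units higher at the 3' than at the 5' end, against 0.46 to 0.59 on the other 7 arrays. Where leaving it out ended or made a call, or moved a printed value of a gene of the family by over 1.5 times, that is given beside the result; single probe sets were not refitted. Between the 2 arrays of that group the 49 genes differed by a median of 0.17 log2 units, against 0.08 to 0.10 in the other groups. Whether the arrays of a group are separate cultures is not in the labels, and a p-value here rests on the spread between arrays, which may be technical.

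Some genes of the family differed between the lines before the hairpin was switched on, in all at a share near that of all genes. Of the 49 genes tested, 15 were higher in 231BrM and 4 were higher in SKBrM3, at a limma adjusted p under 0.05 over all genes. Among all 13002 genes tested, 19.8% were called higher in 231BrM and 19.9% higher in SKBrM3 (39.7% in all), while the counts above are 30.6% and 8.16% of the 49. The median difference (231BrM minus SKBrM3) was 0.00 for the 49 genes and -0.05 for all genes. By role, 4 of 9 laminins were higher in 231BrM and 0 lower, with 5 and 0 at an unadjusted p under 0.05. The same was so for 3 and 0 of 11 integrin alpha chains (4 and 1 unadjusted), 1 and 0 of 6 beta chains (1 and 0 unadjusted), and 7 and 4 of 23 collagens (7 and 7 unadjusted). Unadjusted, 23.3% of all genes were higher in 231BrM and 25.6% lower. Among the collagens 9 differences were positive and 14 negative, with a median of -0.06. Both arrays of 231BrM lay above both of SKBrM3 for 23 of the 49 genes and below for 13, against 33.2% and 43.6% of all genes. In bulk samples, fewer cells with a transcript and less of it per cell cannot be told apart. Markers of fibroblasts, a list of 9 that includes COL1A1, COL1A2 and COL3A1, had 3 genes above the filter and a summed log2 level of 35.9 to 36.1 in 231BrM and 35.9 to 36.4 in SKBrM3. Of 7 leukocyte markers 4 were above it, 3 of them integrin chains of the family itself, while PTPRC lay between 3.36 and 3.46 on all arrays.

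The widest difference was in COL12A1, a collagen that decorates the surface of collagen I fibres. Its log2 values were 8.66 and 8.60 in 231BrM without doxycycline and 8.96 and 8.63 with it. In SKBrM3 they were 5.39 and 5.32 without doxycycline and 5.70 and 5.77 with it. The lines did not overlap under either condition, and the difference was 3.28 without doxycycline (9.68-fold, SE 0.109, limma adjusted p = 3.18e-07) and 3.06 with it (8.33-fold). A second COL12A1 probe set above the filter gave 0.84 and 0.55, the same direction at a smaller size.

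COL8A1, a short-chain collagen of blood vessels and cornea, read 10.13 and 10.23 in 231BrM against 8.11 and 8.31 in SKBrM3 without doxycycline, a difference of 1.97 (SE 0.163, limma adjusted p = 3.91e-05). With doxycycline it read 9.83 and 10.40 against 8.56 and 8.58. COL6A3, the largest chain of the collagen VI filament, read 6.21 and 6.22 against 4.89 and 4.84 without doxycycline, a difference of 1.35 (SE 0.132, limma adjusted p = 9.72e-05). With doxycycline it read 6.19 and 5.89 against 4.23 and 4.57. Both genes were higher in 231BrM on every array. For COL6A3 a second probe set gave 0.74, and the third gave -0.24 (limma adjusted p over probe sets = 0.146), so its probe sets disagree. Of the partner chains of collagen VI, COL6A1 differed by 0.41 (limma adjusted p = 0.0242) and COL6A2 by -0.01 (limma adjusted p = 0.975).

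Among the fibrillar collagens, COL5A1, which nucleates collagen I fibres, was 0.59 log2 units higher in 231BrM (limma adjusted p = 0.00248). It read 7.46 and 7.40 against 6.70 and 6.97, with no overlap. COL1A1, the main chain of collagen I, differed by 0.47 (limma adjusted p = 0.0194), with 5.04 and 4.79 against 4.52 and 4.36, while its partner COL1A2 did not pass the filter. With doxycycline COL1A1 differed by 0.01 (limma adjusted p = 0.97), or by -0.13 without the 3'-heavy array (limma adjusted p = 0.474). The change in that difference, -0.47, did not pass (95% interval -0.89 to -0.05, limma adjusted p = 0.405).

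**Figure D1:**
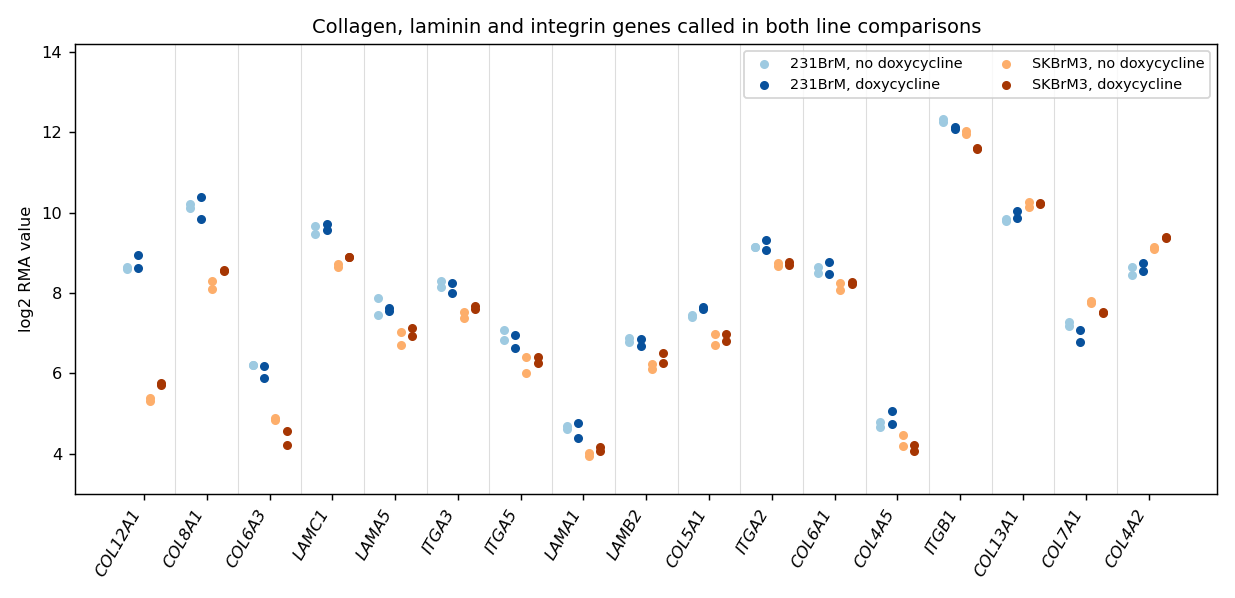
Log2 RMA value (vertical axis) on each of the 8 arrays for the 17 genes called in both line comparisons; each point is an array, and the colours are the 4 groups. In the first 14 genes the 231BrM arrays lie above the SKBrM3 arrays of the same condition, from COL12A1 at 8.60 and above against 5.77 and below, and in COL13A1, COL7A1 and COL4A2 they lie below.

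The laminins higher in 231BrM were LAMC1, LAMA5, LAMA1 and LAMB2, a gamma, 2 alpha and a beta chain. LAMC1, the gamma chain of most laminin trimers, read 9.66 and 9.48 in 231BrM against 8.64 and 8.72 in SKBrM3 without doxycycline. The difference was 0.89 (SE 0.0945, limma adjusted p = 0.000148), and the other 3 LAMC1 probe sets above the filter gave 0.94, 1.03 and 0.29. LAMA5, the alpha chain of the main laminins of adult basement membranes, differed by 0.80 (limma adjusted p = 0.00445), with 7.89 and 7.45 against 6.70 and 7.04. LAMA1 read 4.68 and 4.61 against 4.02 and 3.95, and LAMB2 read 6.87 and 6.77 against 6.12 and 6.24. Since LAMA1 passed the filter only through 231BrM, the filter itself favoured a higher value there. For none of the 4 genes did the arrays of the lines overlap. LAMB1 differed by 0.35 (limma adjusted p = 0.0503), just over the threshold, and its second probe set gave -0.11. LAMB3, the beta chain of the epithelial laminin that anchors hemidesmosomes, differed by -0.00 (95% interval -0.19 to 0.19).

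Among the integrins, ITGA3, which pairs with ITGB1 as a laminin receptor, read 8.30 and 8.16 in 231BrM against 7.38 and 7.52 in SKBrM3 without doxycycline. The difference was 0.78 (limma adjusted p = 0.000545), but 0.36 and no longer called when all ITGA3 probe sets were averaged. ITGA5, the alpha chain of the fibronectin receptor, differed by 0.74 (limma adjusted p = 0.00531), with 7.08 and 6.82 against 6.02 and 6.40. ITGA2, the alpha chain of a collagen receptor, differed by 0.42 (limma adjusted p = 0.00853), with 9.15 and 9.14 against 8.68 and 8.76. ITGB1 itself differed by 0.29 (SE 0.0761, limma adjusted p = 0.0149), with 12.33 and 12.26 against 12.05 and 11.96. All 4 were higher in 231BrM with no overlap between the lines. ITGA6, the alpha chain that pairs with ITGB4 in hemidesmosomes, differed by 0.04 (95% interval -0.15 to 0.23) and ITGB4 by -0.12 (-0.32 to 0.08). ITGAV, the alpha chain of vitronectin receptors, differed by 0.26 (limma adjusted p = 0.0844), and its possible partners ITGB3 and ITGB5 by -0.15 and 0.20 (limma adjusted p = 0.411 and 0.234).

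The 4 genes higher in SKBrM3 without doxycycline were collagens. COL4A2, a chain of the basement membrane collagen IV network, read 9.10 and 9.16 in SKBrM3 against 8.64 and 8.45 in 231BrM, a difference of -0.59 (SE 0.0981, limma adjusted p = 0.0017). Its other 2 probe sets above the filter gave -0.44 and -0.55. COL7A1, the anchoring fibril collagen that ties basement membrane to the tissue beneath, read 7.75 and 7.81 against 7.17 and 7.28 (difference -0.55, limma adjusted p = 0.00307). COL13A1, a collagen that spans the cell membrane, read 10.15 and 10.27 against 9.84 and 9.80 (difference -0.39, limma adjusted p = 0.00759). COL9A1, which coats collagen II fibres, read 4.64 and 4.80 against 4.40 and 4.41, near the filter (difference -0.32, limma adjusted p = 0.0138). It was called without doxycycline only, and lost that call under 3 of 13 alternatives. None of the 4 overlapped between the lines.

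COL4A1, which forms collagen IV trimers with COL4A2, differed by -0.17 (limma adjusted p = 0.21), while a second probe set of it gave -0.52 (limma adjusted p over probe sets = 0.0316). It read 8.43 and 8.33 in 231BrM against 8.52 and 8.59 in SKBrM3, so the arrays did not overlap. COL4A1 and COL4A2 are transcribed away from each other from starts that leave 126 bases between them, and that stretch is shown because the pair shares it. It lies at chr13:110307158-110307283 (GRCh38.p14, sequence from RefSeq) and is read 5′ to 3′ on the strand of COL4A2, with a CCAAT box (CCAAT) and a GC box (GGGCGG) in capitals. On either strand, 21.1% of windows of 126 bases before an annotated human start hold the first motif and 34.6% the second. A match describes letters and not a bound site.
COL4A1-COL4A2: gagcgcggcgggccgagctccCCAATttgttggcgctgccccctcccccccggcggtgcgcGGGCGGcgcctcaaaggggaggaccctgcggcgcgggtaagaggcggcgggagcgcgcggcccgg

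COL12A1 is shown for its wide difference, as the 250 bases before its start at chr6:75206054-75206303 on the minus strand (GRCh38.p14, RefSeq). They are read 5′ to 3′ on that strand, and the capitals mark the 1 GC box, found in its reverse letters CCGCCC. Of 35116 such windows before human starts, 42.6% hold a GC box on either strand. Of the 78 genes, 56 matched a start in the RefSeq table, with 75 windows in all, and 53.3% of those windows hold one. The AP-1 letters TGANTCA, searched on both strands, are not in this window, and 6.57% of all windows hold them.
COL12A1: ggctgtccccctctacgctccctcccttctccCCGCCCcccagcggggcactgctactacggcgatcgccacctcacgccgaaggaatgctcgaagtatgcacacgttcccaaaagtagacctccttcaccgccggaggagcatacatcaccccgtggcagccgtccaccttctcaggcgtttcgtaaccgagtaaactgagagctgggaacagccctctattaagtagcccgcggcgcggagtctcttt

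With doxycycline, measured on the other 4 arrays, 14 of the 49 genes were higher in 231BrM and 5 higher in SKBrM3, against 21.8% and 19.8% of all genes tested (41.6% in all). Both arrays of 231BrM lay above both of SKBrM3 for 22 genes and below for 10, against 35.1% and 33.6%. These 14 were among the 15 called without doxycycline, and 3 of the 5 (COL13A1, COL4A2 and COL7A1) were among the 4. Over all genes, 2130 were called higher in 231BrM in both comparisons, out of 2580 without and 2829 with doxycycline. COL4A5, another collagen IV chain, differed by 0.40 without (limma adjusted p = 0.0434) and by 0.76 with doxycycline (limma adjusted p = 0.00226). In SKBrM3 it read 4.48 and 4.18 without and 4.22 and 4.06 with doxycycline, so it passed the filter through 231BrM, the line where it is high. Its call without doxycycline was lost under 5 of 13 alternatives. ITGB1 differed by 0.29 and 0.52, and ITGA5 by 0.74 and 0.45, the latter with a limma adjusted p of 0.0448. Without the 3'-heavy array the ITGA5 difference with doxycycline was 0.29 and not called (limma adjusted p = 0.172), and it lost its call under 9 of 15 alternatives. COL27A1, a fibrillar collagen of cartilage, and LAMB4 were higher in SKBrM3 with doxycycline, by -0.58 and -0.24 (231BrM minus SKBrM3), while without it they differed by -0.27 and -0.08 and were not called. The change of the line difference with doxycycline passed the limma test for 0 of the 49 genes, where unadjusted 3 higher and 1 lower gene had a p under 0.05, so a call in 1 comparison alone does not show that the difference changed.

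**Figure D2:**
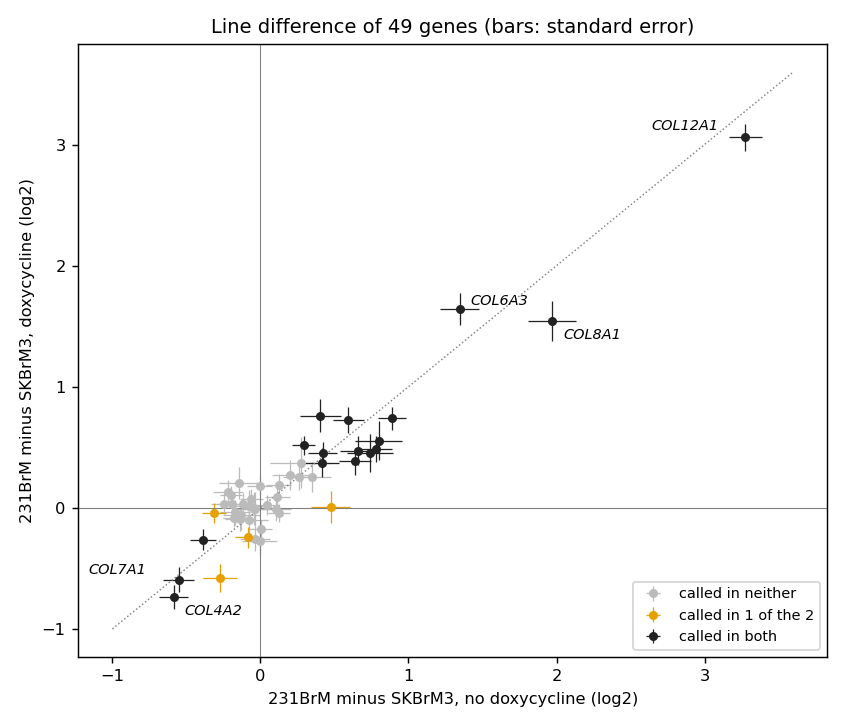
Line difference (231BrM minus SKBrM3, log2) without doxycycline (horizontal axis) and with it (vertical axis) for the 49 genes tested; bars are standard errors, colours show in how many of the comparisons a gene was called, and the dotted line marks equality. COL12A1 lies at 3.28 and 3.06, COL8A1 at 1.97 and 1.54, COL6A3 at 1.35 and 1.64, and COL4A2 at -0.59 and -0.74.

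Other probe sets above the filter existed for 11 of the 19 genes called without doxycycline, and 23 of these 25 probe sets had the same sign. The 2 opposite ones were the third probe sets of COL6A3 and ITGA3. With doxycycline, 24 of 27 had the same sign for 12 of the 19 genes, and the others belong to COL6A1, COL6A3 and ITGA3. Under each of 15 alternatives, 8 of them without 1 array, COL12A1, COL8A1, COL6A3, COL5A1, LAMC1, COL4A2 and COL7A1 kept their call in both comparisons. Leaving an array out changes the spread estimate of every gene. The counts below come without the share of all genes called and are no result about the family. The count of 19 without doxycycline fell to 12 without replicate 1 of the 231BrM control group. COL1A1, COL6A1, COL4A5, COL9A1, ITGA2, ITGA5 and ITGB1 were not called then. Without replicate 1 of the 231BrM doxycycline group, 26 were called without doxycycline and 15 with it. Gained without doxycycline were LAMB1 (0.35) and ITGAV (0.26), higher in 231BrM. The others gained were COL5A2 (-0.25), ITGA9 (-0.20), COL20A1 (-0.18), COL27A1 (-0.27) and COL11A2 (-0.22), higher in SKBrM3. Since ITGA9 passed the filter only through SKBrM3 without doxycycline, the filter itself favoured its gain. With doxycycline ITGB3 was gained (0.21 to 0.40), from 1 231BrM array at 4.50 against 4.08 and 4.13 in SKBrM3, all near the filter. Those that lost their call with doxycycline were ITGA5, COL6A1 (0.37 to 0.21, limma adjusted p = 0.139), LAMA5 (0.55 to 0.51, limma adjusted p = 0.0576), LAMB2 (0.38 to 0.30, limma adjusted p = 0.0669) and LAMB4 (-0.24 to -0.26, limma adjusted p = 0.0517). LAMA1 moved from 0.47 to 0.28 and stayed called (limma adjusted p = 0.0261).

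The genes that make or read the same matrix differed between the lines too. The lists named here are of known partners, and their counts are given beside the 19.8% and 19.9% of all genes called in either direction. Without doxycycline, 11 of 22 tested genes of collagen processing were higher in 231BrM and 4 higher in SKBrM3. LOXL4 and LOX, lysyl oxidases that crosslink collagen, were higher by 1.83 and 0.89, and PLOD1, a collagen lysyl hydroxylase, was higher in SKBrM3 (-0.75). Of 23 other matrix proteins 9 were higher in 231BrM and 5 in SKBrM3, with THBS2 at 3.63 and NTN4, a laminin-related netrin, at -1.95. Of 26 genes of the integrin adhesion complex 9 were higher in 231BrM, with TNS3 at 1.71, ILK at 1.11 and TLN1 at 0.85, and 3 higher in SKBrM3. Those 3 were the kindlins FERMT3, FERMT1 and FERMT2, which activate integrins (-2.35, -1.53 and -0.25). Of 19 other matrix receptors and tetraspanins 12 were higher in 231BrM and 0 in SKBrM3, with the heparan sulfate receptor SDC2 at 1.82. At an unadjusted p under 0.05 they were 15 and 0, against 23.3% and 25.6% of all genes.

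With doxycycline few genes of the family passed the test in either line, a share near that of all genes. In 231BrM, limma called 0 of the 49 genes higher and 0 lower, against 0% and 0.162% of all genes tested. The unadjusted p was under 0.05 for 1 higher and 2 lower, and for 6.15% and 3.74% of all genes. The log2 changes of the 49 ran from -0.30 to 0.30 with a median of 0.04, against 0.05 for all genes. For 46 of the 49 the 95% interval lay within 0.5 log2 units of 0, and for all 49 within 1.0. The widest bounds were -0.53 for COL7A1 and 0.78 for ITGA10, an alpha chain of a collagen receptor. Without the 3'-heavy array the ITGA10 change was -0.04, against 0.30 with it.

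COL7A1 read 7.17 and 7.28 without and 7.08 and 6.78 with doxycycline in 231BrM (-0.30, limma adjusted p = 0.437), and LAMB3 9.97 and 9.80 against 9.72 and 9.76 (-0.15, limma adjusted p = 0.572). ITGB1 changed by -0.19 (SE 0.0761, limma adjusted p = 0.484). COL11A1 and COL1A1, both fibrillar, gave -0.14 and -0.18. In the other direction the smallest p-values belonged to COL5A2 (4.43 and 4.43 against 4.67 and 4.69, change 0.25, limma adjusted p = 0.433) and COL4A1 (0.21), then COL5A3, COL9A1 and COL5A1 (0.15, 0.15 and 0.19). The 2 doxycycline arrays lay beyond both controls for 11 genes upward and 6 downward, against 25.8% and 12.1% of all genes. Leaving out the 3'-heavy array called 0 genes, with COL7A1 at -0.44 (limma adjusted p = 0.0758). COL4A1 was then at 0.07, COL11A1 at -0.00 and COL1A1 at -0.32 (limma adjusted p = 0.83, 0.995 and 0.446). When the other doxycycline array was left out, the 3'-heavy one stood alone. It read 4.92 for COL11A2, 8.96 for COL12A1, 8.73 for COL4A1, 5.78 for ITGA10 and 4.33 for COL11A1. The other array read 4.61, 8.63, 8.45, 5.10 and 4.61. Calls in that fit come without the share of all genes called and are no result about the family.

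In SKBrM3, limma called 1 of the 49 genes, ITGB1, which fell, and 0 higher, against 2.28% of all genes lower and 1.15% higher (3.43% in all). The unadjusted p was under 0.05 for 7 genes upward and 5 downward, 14.3% and 10.2% of the 49, against 10.4% and 9.81% of all genes. The changes ran from -0.47 to 0.38 with a median of 0.02, against 0.01 for all genes, and the 95% interval lay within 0.5 log2 units of 0 for 37 of the 49 and within 1.0 for all 49. ITGB1 read 12.05 and 11.96 without doxycycline and 11.57 and 11.61 with it, with no overlap. It changed by -0.41 (1.33-fold lower, SE 0.0761, 95% interval -0.59 to -0.24, limma adjusted p = 0.0257). In 231BrM it read 12.33 and 12.26 without doxycycline and 12.09 and 12.13 with it, also with no overlap.

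**Figure D3:**
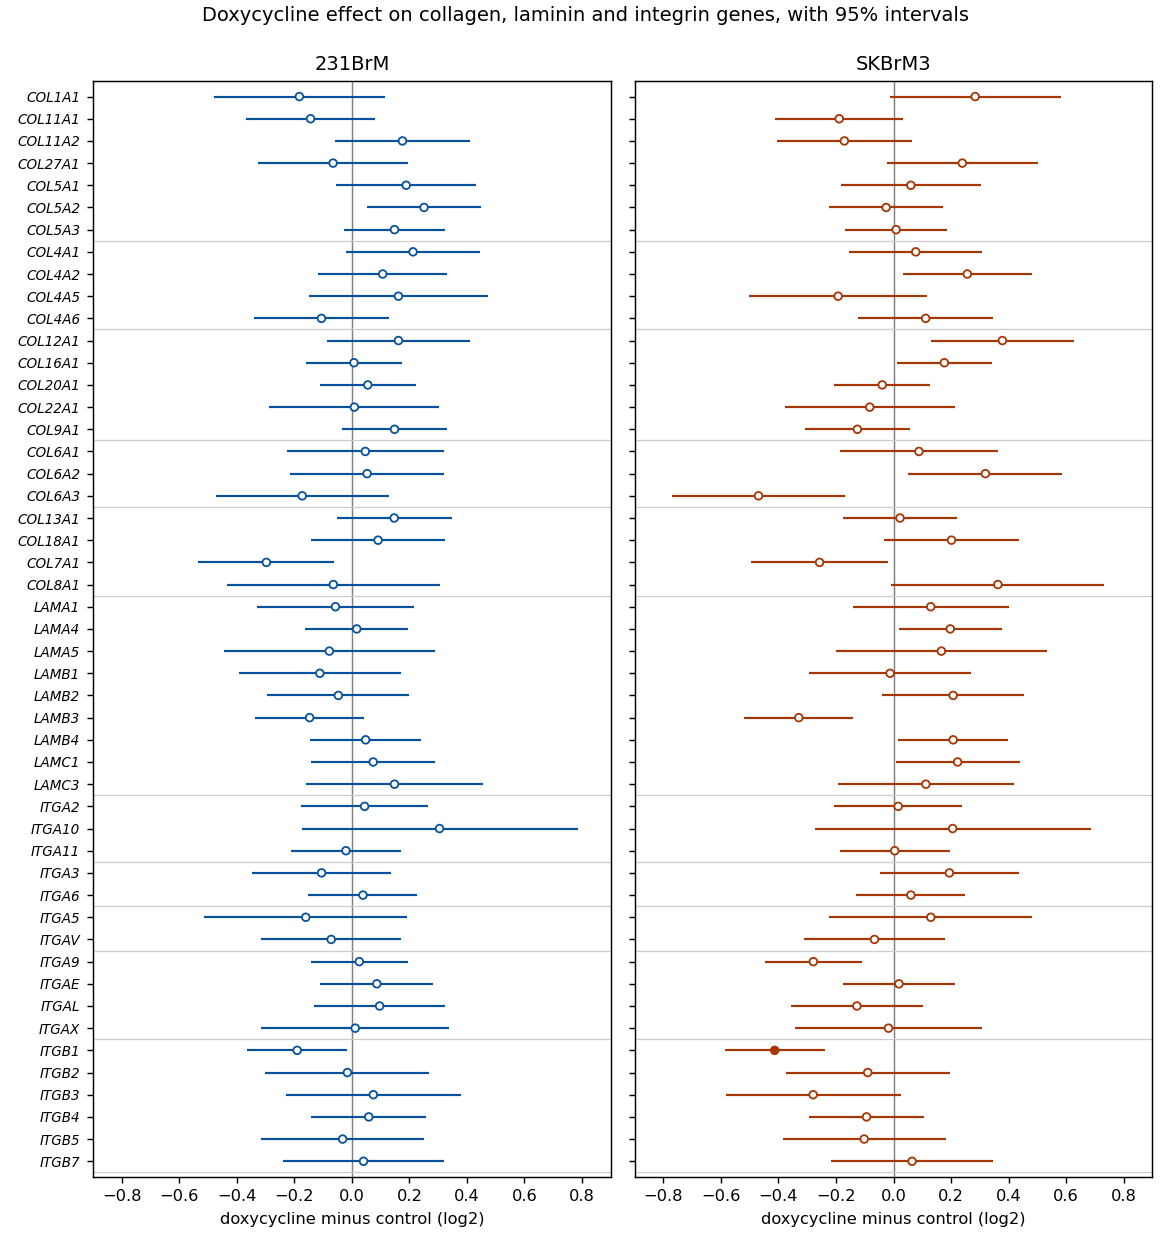
Doxycycline minus control (log2, horizontal axis) for the 49 genes tested in each line, grouped by role; points are estimates over 2 arrays per group, bars are 95% intervals and the filled point is called. In 231BrM all estimates lie from -0.30 to 0.30 with open points, and in SKBrM3 the filled point is ITGB1 at -0.41.

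The ITGB1 gene has 5 probe sets, of which the 4 above the filter all gave lower means with doxycycline in both lines. Next to the probe set used, the second read 10.37 and 10.45 without and 9.54 and 9.65 with doxycycline in SKBrM3, a change of -0.82 (SE 0.0856, limma adjusted p over 28860 probe sets = 0.00755). The fourth read 9.15 and 9.18 against 8.42 and 8.46, a change of -0.72 (SE 0.0966, limma adjusted p over probe sets = 0.0184). In both, the doxycycline arrays lay well below the controls. In 231BrM the same 2 probe sets changed by -0.06 and -0.14 (limma adjusted p over probe sets = 0.815 and 0.675). The third read 9.86 and 9.75 against 8.72 and 9.01 in SKBrM3, and 8.01 and 10.14 with doxycycline in 231BrM, the 8.01 on the 3'-heavy array (changes of -0.94 and -1.01, SE 0.589 each). In that fit over probe sets the one used had a limma adjusted p of 0.053. Of all probe sets of the family, 1 was called higher and 2 lower in SKBrM3, against 0.277% and 1.16% of all probe sets (1.44% in all). In 231BrM 0 were called, against 0.0658%.

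**Figure D4:**
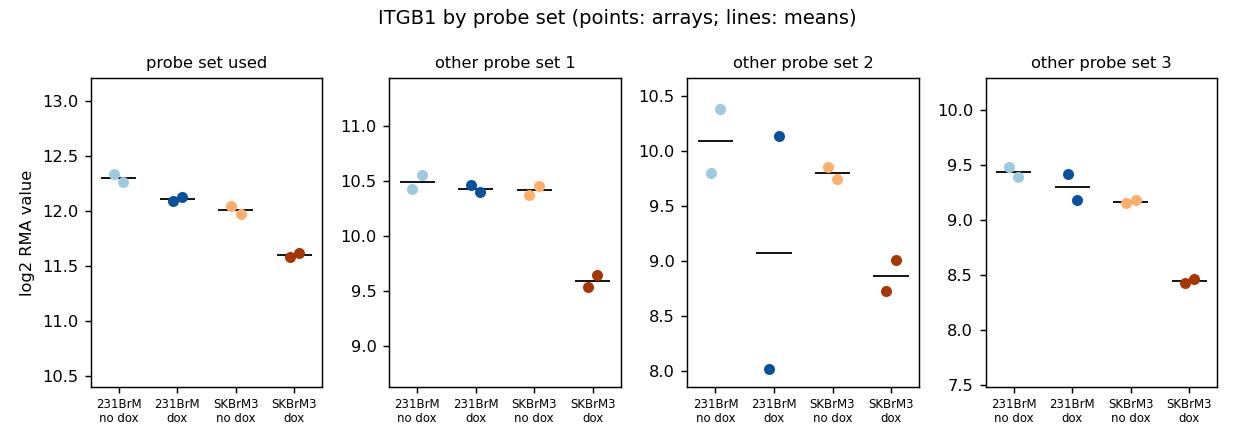
Log2 RMA values of the 4 ITGB1 probe sets above the filter, one panel each with its own axis of equal span; points are arrays and lines are means of 2. The SKBrM3 doxycycline group has the lowest mean in each panel, with arrays at 11.57 and 11.61, 9.54 and 9.65, and 8.42 and 8.46 in 3 of them. In the third probe set a 231BrM doxycycline array lies at 8.01.

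The difference of the ITGB1 change between the lines (231BrM minus SKBrM3) was 0.22 in the probe set used (95% interval -0.02 to 0.47, limma adjusted p = 0.486). It was 0.76, -0.08 and 0.58 in the others (limma adjusted p over probe sets = 0.328, 0.985 and 0.434), and 0% of probe sets passed for this difference, so a fall in SKBrM3 alone was not shown. The call in SKBrM3 was lost when either 231BrM control array or any SKBrM3 array was left out, with changes of -0.45 to -0.37 and a limma adjusted p of at most 0.197. Over all settings it ran from 0.000257 to 0.197. The 250 bases before the upstream of 2 annotated ITGB1 starts are shown because this was the 1 gene called. They lie at chr10:32958231-32958480 on the minus strand (GRCh38.p14, RefSeq), and the capitals mark 3 GC boxes (GGGCGG, or CCGCCC on the other strand). The letters of the AP-1 site, the CCAAT box and the TATA box (TATAAA) are not in this window, and 6.57%, 32.0% and 10.7% of all windows hold them.
ITGB1: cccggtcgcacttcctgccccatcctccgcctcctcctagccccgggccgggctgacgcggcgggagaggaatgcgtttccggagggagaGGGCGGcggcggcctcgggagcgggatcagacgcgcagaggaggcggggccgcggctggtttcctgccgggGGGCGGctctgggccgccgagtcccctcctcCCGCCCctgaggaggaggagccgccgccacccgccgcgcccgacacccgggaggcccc

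No other gene of the family passed the test in SKBrM3. LAMB3 read 9.87 and 9.91 without and 9.55 and 9.57 with doxycycline (-0.33, SE 0.0833, limma adjusted p = 0.0725), and ITGA9, the alpha chain of a tenascin receptor, 4.45 and 4.52 against 4.21 and 4.20 (-0.28, limma adjusted p = 0.0842). Since ITGA9 passed the filter only through its SKBrM3 arrays without doxycycline, the filter itself favoured a fall. COL6A3 changed by -0.47 (limma adjusted p = 0.098) and COL7A1 by -0.26 (limma adjusted p = 0.214). COL12A1 gave 0.38 (limma adjusted p = 0.103), COL6A2 0.32, COL4A2 0.26, LAMA4 0.20 and LAMB4 0.21 (limma adjusted p = 0.18 to 0.216). Both doxycycline arrays lay beyond both controls for 17 genes upward and 10 downward, against 32.3% and 27.2% of all genes. The count depended on the arrays of the other line, whose spread enters the fit of every gene. Without the 3'-heavy array the COL6A3 change in SKBrM3 stayed at -0.47, while its SE fell from 0.132 to 0.105. The counts that follow come without the share of all genes called and are no result about the family. Without either 231BrM doxycycline array, 7 were called, COL6A3, COL7A1, ITGA9, ITGB1 and LAMB3 lower and COL12A1 and COL8A1 higher. In the SKBrM3 arrays alone, 6 were called, the same but for COL7A1. The second probe set of ITGA6, chosen after its values were seen, read 10.89 and 10.87 against 11.34 and 11.33 in SKBrM3 (0.46, limma adjusted p over probe sets = 0.0348), while the other 2 gave 0.06 and 0.04.

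Averaged over both lines, ITGB1 again was the 1 gene called, lower by -0.30 (SE 0.0538, limma adjusted p = 0.0241), with 0 higher, against 2.07% of all genes lower and 0.969% higher (3.04% in all). Unadjusted, 2 higher and 6 lower genes had a p under 0.05, against 11.7% and 7.28% of all genes. The next were LAMB3 (-0.24, limma adjusted p = 0.0719), COL7A1 (-0.28, limma adjusted p = 0.0899), COL6A3 (-0.32, limma adjusted p = 0.113) and ITGA9 (-0.13, limma adjusted p = 0.239). Upward were COL12A1 (0.27, limma adjusted p = 0.109), COL4A2 (0.18), COL6A2 (0.19), LAMC1 (0.15) and LAMB4 (0.13). Without the 3'-heavy array 4 genes were called, ITGB1, COL6A3 and COL7A1 lower and COL8A1 higher. Without replicate 2 of the same group 9 were called. These counts, too, lack the share of all genes called in the same fit. As for SKBrM3 alone, the count was 0 without either 231BrM control array or any SKBrM3 array.

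The doxycycline effects of the lines differed (231BrM minus SKBrM3) for 0 of the 49 genes by limma, against 0.0231% of all genes higher and 0% lower. The unadjusted p was under 0.05 for ITGA9 (0.30), COL9A1 (0.27) and COL11A2 (0.35) upward and COL1A1 (-0.47) downward, with limma adjusted p of 0.352 to 0.424, against 6.86% and 4.31% of all genes at that unadjusted threshold. For ITGA9 the filter favoured this direction, as it passed only through SKBrM3 without doxycycline. Then came COL5A2 (0.28) and ITGB1, and downward ITGA3 (-0.30), COL27A1 (-0.30), COL8A1 (-0.43) and LAMB2 (-0.25). Without the 3'-heavy array COL11A2 was at 0.19 and COL8A1 at -0.15 (limma adjusted p = 0.354 and 0.589). The 95% interval of the difference lay within 0.5 log2 units of 0 for 28 of the 49 genes. The 2 effects had the same sign for 28 of 49 genes (57.1%), and for 57.1% of all genes.

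Among the partner genes, limma called 0 in 231BrM in each of the 4 lists, with 2 to 3 per list at an unadjusted p under 0.05. In that line 0% of all genes were called higher and 0.162% lower, with 6.15% and 3.74% unadjusted. Without the 3'-heavy array THBS2 and SDC4 were called lower there. In SKBrM3 the matrix receptor SDC4, a syndecan that joins integrins in focal adhesions, read 10.16 and 10.30 without and 9.25 and 9.30 with doxycycline (-0.96, SE 0.0937, limma adjusted p = 0.00169). In 231BrM it read 10.51 and 10.54 against 9.78 and 9.99 (-0.63, limma adjusted p = 0.0587). The perlecan gene HSPG2, whose product binds laminin in basement membranes, read 5.37 and 5.12 against 6.12 and 5.86 in SKBrM3 (0.74, SE 0.14, limma adjusted p = 0.027) and changed by -0.09 in 231BrM. FERMT2, a kindlin that activates integrins, changed by -0.42 (limma adjusted p = 0.0264) in SKBrM3 and by -0.03 in 231BrM. SRC, the kinase of focal adhesions, gave 0.36 (limma adjusted p = 0.0478) and -0.25. These 4 were the ones called in SKBrM3, where limma called 1.15% of all genes higher and 2.28% lower. By list they were 1 higher and 1 lower of 26 adhesion genes, 1 higher of 23 matrix proteins and 1 lower of 19 receptors. Of 22 processing genes 0 were called (3 higher and 4 lower unadjusted, against 10.4% and 9.81% of all genes). Without the 3'-heavy array the calls in SKBrM3 were 2 higher and 1 lower adhesion genes, 3 and 2 matrix proteins, 1 and 2 receptors, and 1 and 2 processing genes. Those counts lack the share of all genes called in that fit and are no result about the lists. No partner gene passed the test of the difference between the lines, at 1 to 4 per list and direction unadjusted. Of all genes, 0.0231% passed it higher and 0% lower, with 6.86% and 4.31% unadjusted. In the average, 3 partner genes were called, all lower: SDC4 by -0.79 (limma adjusted p = 0.000631), P4HA1, a subunit of the collagen prolyl hydroxylase, by -0.31 (limma adjusted p = 0.026), and TNC, tenascin C, by -0.29 (limma adjusted p = 0.0444). Of all genes 2.07% were called lower there.

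Of the 49 genes tested, 28 were called in no comparison: 11 collagens, 4 laminins, 8 integrin alpha and 5 beta chains. ITGA6 ranged from 11.84 to 12.03 on the 8 arrays. ITGAE, the alpha chain by which lymphocytes bind E-cadherin, ranged from 9.88 to 10.21, and ITGAX, a leukocyte chain, from 5.68 to 6.04. COL18A1, whose end fragment is endostatin, ranged from 5.49 to 5.84, and COL4A6, a chain of epithelial collagen IV, from 4.87 to 5.32. ITGA10 had the widest range of the 28, from 4.83 to 5.78, on the log2 scale. Its 5.78 was on the 3'-heavy array, and its highest value on any other array was 5.35. ITGB2 and ITGB7, leukocyte beta chains, lay at 4.47 to 4.83 and 4.39 to 4.73, near the filter. With no filter, ITGA1, the alpha chain of another collagen receptor, was called higher in 231BrM, by 0.40 without and 0.32 with doxycycline (limma adjusted p = 0.00429 and 0.0119). In the comparison with doxycycline, ITGA7 was also called higher in 231BrM (0.29, limma adjusted p = 0.0298), and COL14A1 and COL26A1 higher in SKBrM3 (-0.23 and -0.25, limma adjusted p = 0.0468 and 0.0308).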

How the data were processed

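Expression of total RNA from cultured cells was read on 8 arrays, grouped by the labels. The deposited table holds log2 values that the authors made with RMA, per the submitters' processing notes. The software, its version and the chip definition are not given in the sources; scanner files were not analysed here. Because RMA equalises the arrays, it hides any change in total RNA, and low values have no measured background. A gene was represented by its brightest probe set (by mean log2 value) and tested if 2 or more arrays exceeded the 40th percentile of the table. Values were fitted with limma 3.58.1 (R 4.3.3) as 4 group means, with 4 residual and 4.60 prior degrees of freedom. Tests were two-sided, with Benjamini-Hochberg adjustment over 13002 genes, or over 28860 probe sets where stated.

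Members and lists were chosen with earlier results of these data known. Named are the members called in a doxycycline comparison, otherwise up to 5 per direction with the smallest p, up to 12 called per direction between the lines, the main integrin, laminin, collagen IV and collagen VI chains whatever their change, and up to 3 called genes per partner list; partner genes named in the line comparison, ITGA6's second probe set and genes that complete a count were added once their values were known. On simulated data of 13002 genes on which the fit was tested, of changes of 0.5, 45% were recovered in 231BrM and 50% in SKBrM3, and of changes of 1.0, 92% and 95%. Alternatives covered filters, probe sets, centring, spread models, the replicate block and each array left out.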

Additional observations from a re-analysis of the deposited data

How the results depend on the processing

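The number of arrays limits the precision, and all calls in 1 line draw on the spread of both. A setting can change the calls of all genes. A count under it, given without that share, is no result about the family. Of the 19 genes called between the lines without doxycycline, 10 kept the call under every alternative run, and 11 of 19 did with doxycycline. No called result changed direction. A stricter filter and averaged probe sets left some low genes out, which then have no value. Members called in SKBrM3 with doxycycline numbered 2 with arrays centred on their median, 2 with trended, robust moderation, 6 with array weights and 6 in the SKBrM3 arrays alone, against 1. For the average the first 2 settings gave 3 and 2. With 1 array left out (a lone array is assumed to vary like the other groups), counts ran from 0 to 5 in 231BrM, 0 to 7 in SKBrM3, 0 to 9 for the average, 0 to 2 for the difference, 12 to 26 between the lines without doxycycline and 14 to 22 with it. The 5, the 9 and the 2 (COL11A2 and COL8A1) came without replicate 2 of the 231BrM doxycycline group. The cause was not tested.

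The replicate number is shared by groups in the labels, but deviations of same-numbered arrays correlated at 0.24 in 231BrM and -0.01 in SKBrM3, so it was not taken to pair them. With the replicate block, 0, 1, 1, 0, 19 and 16 members were called in 231BrM, SKBrM3, the average, the difference and the lines without and with doxycycline. The share of all genes called with the block is not given, so the counts are no result about the family. ITGA5, COL13A1 and LAMB4 lost their call with doxycycline.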
